A study of Mus musculus with 5 samples.

Results

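Pericytes of the mouse heart were examined across 5 single-cell RNA-sequencing libraries of digested hearts. A pericyte was a cell barcode with mitochondrial transcripts at no more than 10% of its unique molecular identifiers (UMIs, each counting 1 captured transcript), a sum of at least 3 UMIs over the marker genes Rgs5, Kcnj8, Abcc9 and Vtn and at least 1 UMI of Kcnj8, Abcc9 or Vtn. It also had no more than 1 UMI of Myh11 (smooth muscle), no more than 1 of Pecam1 and Cdh5 together (endothelium), no more than 4 of Dcn and Col1a1 together (fibroblasts) and no UMI of Ptprc (leukocytes). These conditions were met by 130 of the 38337 barcodes that passed the mitochondrial limit, out of 47319 deposited. The control group was 2 libraries, replicates 1 and 2, from 4 mice of genotype Ctla4+/+Pdcd1-/-. The disease group was 3 libraries, replicates 3, 4 and 5, from 10 mice of genotype Ctla4+/-Pdcd1-/-, which the submitters describe as having the myocarditis of immune checkpoint inhibition. Both groups thus lacked Pdcd1, the gene of the inhibitory receptor PD-1, and differed in having both or 1 copy of Ctla4, the gene of a second inhibitory receptor of T cells. The hearts were pooled before DRAQ5+DAPI- (nucleated, intact) cells were sorted, so the libraries are the replicates, and p-values measure the spread between these libraries, which may be technical. Which mice entered which library, and their age and sex, are not given in the sources used here. The per-library genotype labels count upwards from library to library (Pdcd1-/-, Pdcd2-/-, Pdcd3-/-), whereas the series design gives Pdcd1-/- for all of them, and the grouping follows the design.

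Pericytes are mural cells embedded in the basement membrane of capillaries, where each one contacts several endothelial cells. They are recruited by platelet-derived growth factor from the endothelium through the receptor Pdgfrb, are kept in their state partly by Notch3 signalling, and are densely distributed in the heart. Their ATP-sensitive potassium channel is built from the products of Kcnj8 and Abcc9, and their soluble guanylate cyclase (Gucy1a1, Gucy1b1) responds to nitric oxide. They lack most of the contractile programme of arterial smooth muscle.

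Libraries differed before any pericyte was counted. Total UMIs ran from 24991704 in control replicate 2 to 55053988 in control replicate 1. The mitochondrial limit kept 67.5% of the barcodes of disease replicate 3 and between 78.7 and 87.7% in the others. Leukocytes, taken as barcodes with at least 2 Ptprc UMIs, made up 35.2% of the kept barcodes of disease replicate 4, and barcodes with any Ptprc UMI 50.9% there against 14.1 to 25.5% in the others. Ctla4 was counted in the leukocytes of every library, at 13.4 to 296 UMIs per 1e6 UMIs of the class (CPM), and Pdcd1 at 24.3 to 490 CPM. Where the Pdcd1 deletion lies is not given in the sources used here, so these counts do not check the genotype. Pericytes held 3 Ctla4 UMIs and 1 Pdcd1 UMI in all. Between libraries 1208 barcode sequences recurred, of which none was a pericyte in both.

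The label was compared with 20 further pericyte genes that took no part in choosing the cells. All 20 had UMIs in the pericytes and also in each other cell class, so their detection alone says nothing about the label. Their summed level ran from 13390 to 15020 CPM in the control libraries and from 14730 to 19420 CPM in the disease libraries. The same sum was 7458 to 9193 CPM in smooth muscle cells, 329 to 385 CPM in endothelial cells, 651 to 770.5 CPM in fibroblasts and 52.0 to 82.1 CPM in leukocytes. In sum over each library the pericytes thus held the highest level of these genes, although 22 of the 130, described further on, held less of them than smooth muscle cells did. Since the cells were chosen by their own UMIs, these contrasts between cell classes are descriptions without a test.

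Among genes at 100 CPM or more in every pericyte sum, with the 4 genes of the rule left out, Colec11, which encodes a secreted collectin, had the highest level relative to all other kept barcodes. Its level was 1283 and 1498 CPM in the control libraries and 1459, 2102 and 2628 CPM in the disease libraries, against 40.1 to 179 CPM in smooth muscle cells and at most 13.5 CPM in endothelial cells, fibroblasts and leukocytes. Cox4i2, an oxygen-sensitive isoform of a cytochrome c oxidase subunit, stood at 2132 and 2140 CPM without disease and 2165, 3080 and 2493 CPM with it. Smooth muscle cells held 1166 to 1408 CPM of it, so this gene marked both mural classes. Steap4, a metalloreductase, reached 1290 and 1401 CPM in the controls and 659, 1392 and 1762 CPM in disease. Art3, an ADP-ribosyltransferase family member, ran from 753 to 1971 CPM in pericytes, from 61.7 to 136 CPM in smooth muscle cells and from 154 to 196 CPM in endothelial cells. Of the 15 genes of highest ratio, Colec11, Cox4i2, Steap4, Art3, Ndufa4l2 and Pdgfrb had pericyte ranges that lay wholly above those of smooth muscle cells.

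The other 11 genes of highest ratio were Rgs4, Higd1b, Ndufa4l2, Notch3, Gucy1b1, Cspg4, Serpini1, Casq2, Gja4, Pdgfrb and Gucy1a1. Pdgfrb, the receptor for endothelial platelet-derived growth factor, had 570 and 817 CPM in control and 800.0, 592 and 1060 CPM in disease libraries, with the groups overlapping. Smooth muscle cells held 324 to 392.5 CPM of Pdgfrb and fibroblasts 57.0 to 79.7 CPM. Notch3, the mural Notch receptor, and Casq2, a calcium-storing protein, had pericyte ranges that overlapped those of smooth muscle cells: 360 to 753 against 385 to 801 CPM, and 267 to 331 against 304 to 635 CPM. The nitric oxide receptor subunits Gucy1a1 and Gucy1b1 overlapped in the same way. Gja4, the gap junction protein connexin of arterial and capillary vessels, was at 188 CPM in disease replicate 3 and at 563.5 to 888 CPM in the other 4 libraries.

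**Figure D1:**
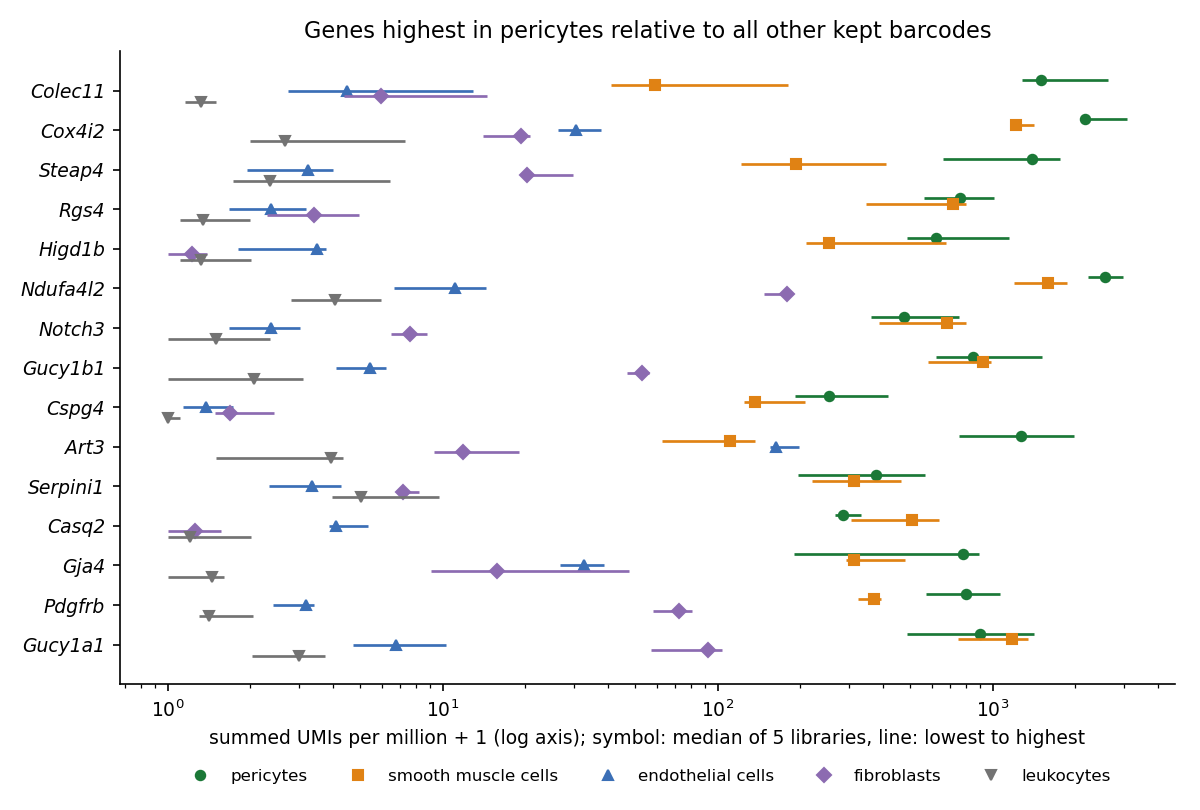
Levels of the 15 genes with the highest ratio of pericytes to all other kept barcodes, as summed CPM plus 1 on a log axis. Symbols are the median and lines the lowest to highest of 5 libraries in each cell class. Endothelial cells, fibroblasts and leukocytes lie far below pericytes for every gene shown, whereas smooth muscle cells overlap pericytes for genes such as Notch3 and Gucy1a1 and lie below them for 6 genes, Colec11 among them.

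The marker genes were also counted cell by cell. After each cell was thinned to 1000 UMIs, which left out 16 pericytes that had fewer, Colec11 had a UMI in 66.7% of 114 pericytes (95% Wilson interval 57.6 to 74.7%) and in 0.0615% of 6501 leukocytes (0.0239 to 0.158%). Without thinning the shares were 76.2% of 130 pericytes and 0.196% of 6650 leukocytes. The leukocytes were the deeper cells, with library medians of 4417 to 6084.5 UMIs against 1578 to 2765.5 in pericytes. Pdgfrb had a UMI in 50.9% of the thinned pericytes (41.8 to 59.9%) and 0.0308% of the thinned leukocytes. Leukocytes should lack these genes, so their shares give the background. Both genes were among the 15 of highest ratio in these same pericytes. Their higher shares in pericytes than in leukocytes are thus a description without a test. The intervals cover counting error only.

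The 4 genes of the rule were uneven among the pericytes. Rgs5, a regulator of G-protein signalling, had a UMI in 128 of 130 pericytes, with a median of 25.5 UMIs and a highest value of 221. Kcnj8 had a UMI in 101, Abcc9 in 104 and Vtn, which encodes vitronectin, in 107. All 4 were present together in 77 cells. The median of their sum was 41.5 UMIs. Just inside the threshold, 1 pericyte had a sum of 3 and 21 had sums of 4 to 9. Just outside it, 7 barcodes that met the other conditions had a sum of 2.

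The 22 pericytes with sums below 10 differed from the other 108 in genes outside the rule. Their median depth was 1084.5 UMIs against 2338.5. Their 20 further pericyte genes summed to 3974 CPM against 16650 CPM, and their endothelial markers to 15610 CPM against 3744 CPM. Their own markers thus fell short of the pericyte label. Leaving them out, an alternative chosen after seeing the data, gave 48 genes lower and 2 higher in disease, against 48 and 3 with the full set below, and 43 of the lower genes were the same. Carmn was the gene no longer called higher.

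Most barcodes with enough pericyte marker UMIs were set aside by the other conditions. Of 774 such barcodes, 456 had more than 1 UMI of Pecam1 and Cdh5, 200 more than 1 of Myh11, 160 more than 4 of Dcn and Col1a1 and 51 a UMI of Ptprc, with some failing several. The 263 that failed only the endothelial limit had a median of 5433 UMIs, against 2154.5 in the pericytes kept. Scrublet, a doublet caller run on each library, called none of the 263 a doublet and none of the 130 pericytes, while it called 1199 (3.13%) of all kept barcodes.

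Transcripts of other cell types were present in the pericyte sums. The 10 endothelial markers summed to 5092 and 5369 CPM in the control and 3897 to 6130 CPM in the disease pericytes, and to 28920 to 39220 CPM in endothelial cells. Most of that sum came from Fabp4, a fatty acid carrier of capillary endothelium, with 598, 239, 70, 169 and 207 UMIs in replicates 1 to 5. Endothelial markers overlapped between the groups. The 10 fibroblast markers ran from 1439 to 1731 CPM in control and from 1333 to 1412 CPM in disease pericytes, against 44530 to 73330 CPM in fibroblasts, and the pericyte groups did not overlap. Pdgfra, which defines cardiac fibroblasts, had 3 UMIs, all in control pericytes. Cardiomyocyte markers ran from 661 to 1229 CPM in control and from 518 to 821 CPM in disease, and 9 of 10 leukocyte markers had UMIs, at 97.3 to 448 CPM and 269 to 769.9 CPM. Schwann cell markers were at 0 to 13.6 CPM in control and 14.9 to 141 CPM in disease from 7 UMIs in all, and erythroid markers at 0 to 19.5 and 29.6 to 94.1 CPM from 8 UMIs. Neither pair of groups overlapped. The part of these transcripts in the differences given below was not tested.

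Smooth muscle genes were low and concentrated in few cells. Cnn1, a smooth muscle calponin, and Myocd, the smooth muscle master regulator, had no UMI in any of the 130 pericytes, which allows a share of cells with a UMI of up to 2.31% and sets no limit on cells expressing the gene. Acta2, smooth muscle actin, had no UMI in 96 pericytes, and the 5 cells richest in it carried 64.9% of its 279 UMIs. A single pericyte of disease replicate 5 held 80 UMIs of Acta2 and 109 of Tagln, a contractile protein, with no Myh11. By library, Acta2 stood at 550 and 1245 CPM in control and at 847, 711 and 1374 CPM in disease, so the groups overlapped.

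Pericytes formed a small share of the kept barcodes in every library. Control replicate 1 held 52 of them and control replicate 2 held 20, while disease replicates 3, 4 and 5 had 11, 19 and 28. Their shares were 0.561% (95% Wilson interval 0.428 to 0.735%) and 0.358% (0.232 to 0.552%) in control, and 0.189% (0.106 to 0.338%), 0.191% (0.122 to 0.298%) and 0.364% (0.252 to 0.526%) in disease. Disease replicate 5 lay above control replicate 2, so the groups overlapped. The mean was 0.459% ± 0.144 (SD, n = 2) in control and 0.248% ± 0.101 (SD, n = 3) in disease. The difference of -0.211 percentage points was within the spread between libraries by a two-sided exact permutation test (p = 0.3), and 2 libraries against 3 cannot give a p below 0.1. With barcodes thinned to 2000 UMIs before the rule the difference was -0.341 percentage points and the groups did not overlap (exact permutation p = 0.1). They did not overlap either with a marker sum of at least 5 or at least 10, or without the limit on Pecam1 and Cdh5 (exact permutation p = 0.2 for each). Of fibroblasts and pericytes together, a denominator without leukocytes, the shares were 1.89 and 1.66% in control and 0.681, 1.12 and 1.51% in disease, with no overlap (exact permutation p = 0.2). The groups overlapped with the other denominators that leave out leukocytes. Of endothelial cells and pericytes together the shares were 2.48 and 0.982% in control and 0.587, 1.33 and 1.16% in disease (exact permutation p = 0.5), and of barcodes without a Ptprc UMI 0.753 and 0.416% against 0.223, 0.388 and 0.464% (exact permutation p = 0.3).

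Disease pericytes were also shallower. The median depth was 2765.5 and 2467.5 UMIs for control and 1578, 1699 and 1927.5 for disease replicates, a difference of -882 UMIs in which the groups did not overlap (two-sided exact permutation p = 0.1, as low as 5 libraries can give). Median genes per pericyte were 1355 and 1357.5 in control and 877, 901 and 1042 in disease, again without overlap and with an exact permutation p of 0.1. The ratio of the pericyte median to the endothelial median of the same library was 0.808 and 0.780 in control and 0.508, 0.656 and 0.669 in disease. Endothelial cells and fibroblasts were also shallower in disease without overlap, whereas smooth muscle cells and leukocytes overlapped (exact permutation p = 0.4 and 1.0). The median was 3420.5 and 3165 UMIs against 3109, 2592 and 2882 in endothelial cells and 6325 and 6255 against 5455.5, 5694.5 and 5952 in fibroblasts (exact permutation p = 0.2 for each). This depth comparison was added after the values were seen. The rule's limits are absolute UMI counts, and the size of the gap depended on them: without the limit on Pecam1 and Cdh5 it was -494 UMIs and the groups overlapped (exact permutation p = 0.4). With the marker conditions alone it was -366 UMIs (exact permutation p = 0.7), and with Dcn and Col1a1 at most 1 UMI it was -1241 UMIs (exact permutation p = 0.1).

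**Figure D2:**
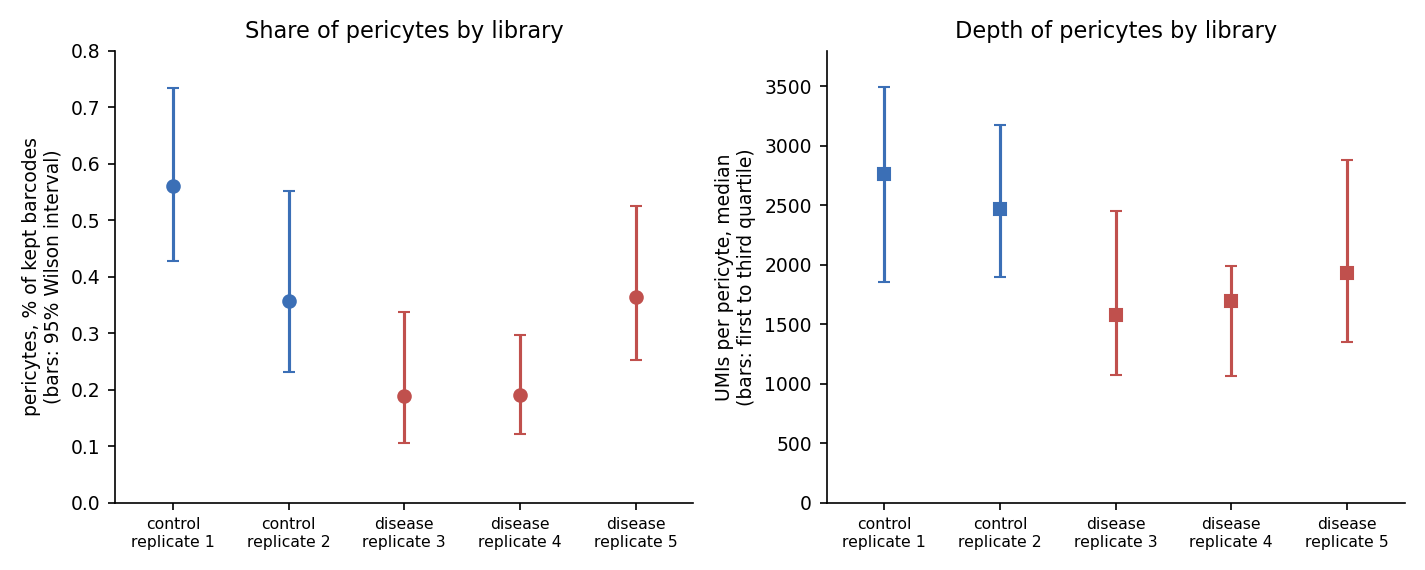
Left, pericytes as a percentage of kept barcodes in each library, with 95% Wilson intervals. Right, the median UMIs per pericyte, with bars from the first to the third quartile of cells. Shares overlap between control (blue) and disease (red) libraries, whereas the 2 control medians lie above the 3 disease medians.

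Disease was compared with control in pericytes on the UMIs summed over the pericytes of each library, 147291 and 51409 in control and 21251, 33771 and 66979 in disease. At this depth 994 genes could be tested by the quasi-likelihood method of edgeR, with p-values adjusted after Benjamini and Hochberg. Past the threshold of 0.05 were 51 genes (5.13% of those tested), 3 of them higher in disease (0.302%) and 48 lower (4.83%). The higher genes were Neat1, Carmn and Anxa1. The lower genes, named here after their values were seen and not as themes, included Cox5b, Cox6a1, Cox8a, Ndufab1, Ndufb2, Atp5b, Atp5d, Eif1, Eif3f, Eif5a, Rps2, Rpl13, Pfn1, Arpc2, Rhoa, Atf3, Dnajb1, Dnajb9, Sqstm1, Igfbp7, Cebpd, H2-D1, Cxcl12, Nfkbia and Mt1. Leaving out a library changed these counts by more than 1.5 times: 9 lower and none higher without disease replicate 4, 10 and none without disease replicate 5, 24 and 1 without control replicate 1. DESeq2 called 29 lower and 2 higher.

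**Figure D3:**
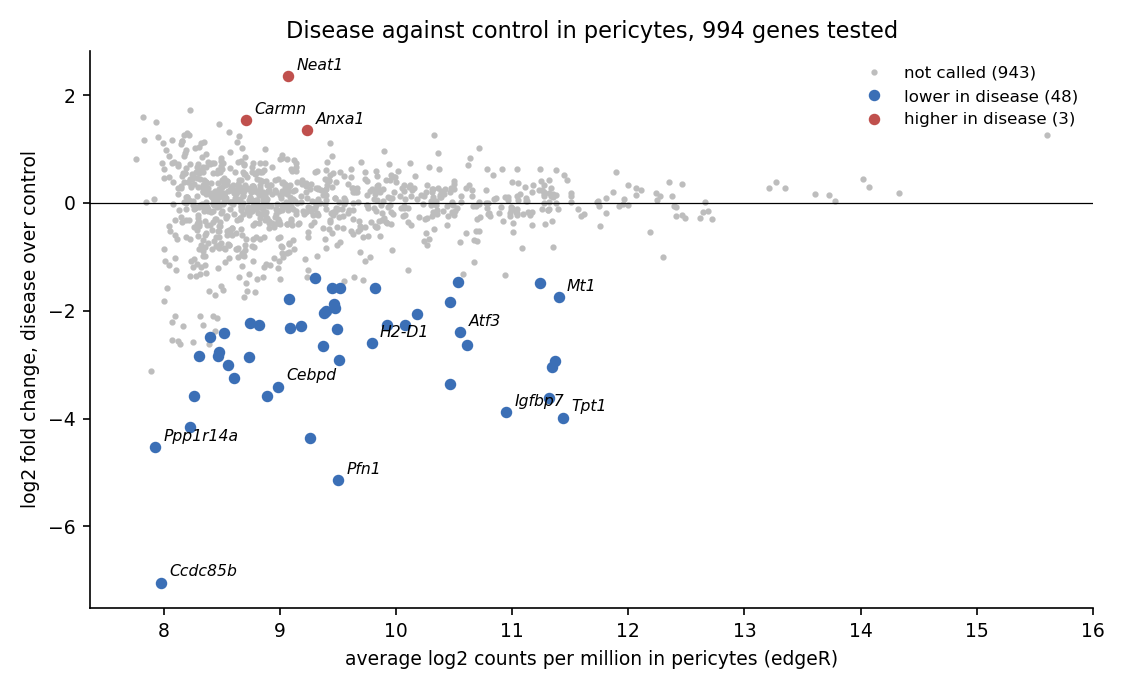
Each point is 1 of the 994 genes tested, with its average level in pericytes on the horizontal axis (log2 CPM) and the log2 ratio of disease to control on the vertical axis. The 48 genes called lower (blue) reach further from 0 than the 3 called higher (red).

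Neat1, a nuclear long non-coding RNA of the paraspeckle, rose most. Its level was 88.3 and 117 CPM in the control libraries and 800.0, 503 and 403 CPM in the disease libraries, from 13, 6, 17, 17 and 27 UMIs. Every disease library lay above both controls, a condition for naming it here, for a log2 change of 2.35 (SE 0.44, edgeR adjusted p = 0.0105). It passed in 12 of 18 alternatives, with adjusted p from 0.00797 to 0.225. The call was lost without control replicate 1, disease replicate 4 or disease replicate 5, with equal numbers of pericytes per library, with pericytes thinned to 1000 UMIs and without the limit on Pecam1 and Cdh5. Without that limit the log2 change was 0.55, and it was 0.54 for Carmn and 0.69 for Anxa1. Carmn, a long non-coding RNA of mural cells and the host of microRNAs of smooth muscle, stood at 129 and 97.3 CPM in control and 282, 415 and 373 CPM in disease. The log2 change came to 1.53 (SE 0.39, edgeR adjusted p = 0.0477). Anxa1, the phospholipid-binding annexin that mediates part of the anti-inflammatory response to glucocorticoids, stood at 204 and 175 CPM in control and 424, 474 and 612 CPM in disease, for a log2 change of 1.35 (SE 0.33, edgeR adjusted p = 0.0417). In disease replicate 5, 1 pericyte held 18 of the 41 Anxa1 UMIs. Carmn passed the threshold in 5 of 16 alternatives and Anxa1 in 6 of 18. Both calls were lost without any one of control replicates 1 and 2 and disease replicates 4 and 5.

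Malat1 and S100a6 had the next smallest p-values among higher genes and did not pass. Malat1, an abundant nuclear RNA, was at 15470 and 18520 CPM in control and 62400, 35330 and 30910 CPM in disease (a log2 change of 1.27, SE 0.35, edgeR adjusted p = 0.0658). Disease libraries all exceeded both controls for Malat1, as they did for Neat1. Groups that did not overlap were seen in 26.1% of all genes tested. The disease pericytes also had fewer UMIs, and the cause of these differences was not tested. With every pericyte thinned to 1000 UMIs the log2 change was 1.39 for Malat1 (edgeR adjusted p = 0.560) and 2.07 for Neat1 (edgeR adjusted p = 0.225). Malat1 passed in 5 of 18 alternatives, with adjusted p from 0.00777 to 0.820, among them DESeq2 (adjusted p = 0.0371) and the fit without disease replicate 3 (edgeR adjusted p = 0.00777). S100a6, a calcium-binding protein, was at 692.5 and 603 CPM in control and 1176, 1717 and 1269 CPM in disease (a log2 change of 1.01, SE 0.32, edgeR adjusted p = 0.110).

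The 12 falls that the naming rule selected were led by Ccdc85b, a coiled-coil protein gene. It had 34 and 14 UMIs in the control pericytes (231 and 272 CPM) and none in any disease library, which puts it at least 9.82-fold lower when 3 UMIs are allowed over the disease group. Pfn1, the actin monomer-binding profilin, was at 917 and 817 CPM in control and at 0, 29.6 and 29.9 CPM in disease, with 177 UMIs against 3. The pooled control level was 36.2 times the disease level (95% interval from counting error alone, 12.2 to 177), and the edgeR adjusted p was 0.000159. Profilin transcripts were thus found in 44 of 52 and 17 of 20 control pericytes and in 3 of the 58 disease pericytes. Ppp1r14a, an inhibitor of myosin phosphatase that promotes smooth muscle contraction, had 46 UMIs against 1, a pooled ratio of 28.2 (4.82 to 1140), and its call held in 8 of 13 alternatives, not in DESeq2. Ndufab1, an acyl carrier and complex I protein, had 56 against 2 (ratio 17.2, interval 4.54 to 145), and Ndfip1, an adaptor of ubiquitin ligases, had 59 against 3 (ratio 12.1, interval 3.94 to 60.2). Calls held in 12 of 16 alternatives for Ndufab1, 11 of 15 for Ndfip1 and 10 of 12 for Ccdc85b. For each of these they were lost without disease replicate 4. In each of these 5 genes every disease library lay below both controls, which was a condition of the naming rule. Groups that did not overlap were seen in 26.1% of all genes tested.

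More abundant genes fell too. Tpt1, the translationally controlled tumour protein present in nearly all cells, was at 4128 and 3248 CPM in control and 94.1, 237 and 328.5 CPM in disease (a log2 change of -3.98, SE 0.38, edgeR adjusted p = 0.000159). Eif1, which selects the start codon, was at 3401 and 3171 CPM in control and 329, 266.5 and 269 CPM in disease (a log2 change of -3.62, SE 0.32). Igfbp7, a secreted vascular binding protein, was at 1616 and 3637 CPM in control and 141, 88.8 and 269 CPM in disease (a log2 change of -3.88, SE 0.49). The disease values of all 3 genes lay far below both controls, and Tpt1, Eif1, Pfn1 and Cox8a kept an adjusted p under 0.05 in each of the 18 alternatives.

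Respiratory chain subunits were among the falls, while others were not called. Cox8a was at 1684 and 1731 CPM in control and 235, 29.6 and 239 CPM in disease (a log2 change of -3.36, SE 0.48). Cox5b stood at 747 and 622.5 CPM against 141, 0 and 14.9 CPM (a log2 change of -4.37, SE 0.64), and Cox6a1 at 557 and 408.5 CPM against 141, 0 and 29.9 CPM (a log2 change of -3.58, SE 0.63). The Cox5b call held in 16 of 18 alternatives and the Cox6a1 call in 14 of 18. Both were lost without disease replicate 4 or disease replicate 5. Of the 24 genes listed for hypoxia, glycolysis and oxidative phosphorylation, 15 were tested and none was called, where 5.13% of all genes tested were. Their median log2 fold change was -0.09 against 0.00 over all genes tested. They included Cox4i1 (-0.30), Cox6c (-0.04) and Gapdh (0.04), and the pericyte isoform genes Cox4i2 (0.20) and Ndufa4l2 (0.07). The called subunits lay outside the list and were named for their large falls, so they cannot be set against it.

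Of the lists of stress and inflammation genes, members that were called are given here, with the counts of their lists further on. Cebpd, a transcription factor induced by cytokines and glucocorticoids, was at 659 and 350 CPM in control and 188, 0 and 29.9 CPM in disease (a log2 change of -3.41, SE 0.69, edgeR adjusted p = 0.0157). Atf3, a stress-induced transcription factor, was at 1500.0 and 1828 CPM in control and 329, 296 and 358 CPM in disease (a log2 change of -2.40, SE 0.32, edgeR adjusted p = 0.00174). In control replicate 2, 1 pericyte carried 62 of the 94 Atf3 UMIs. Nfkbia, the inhibitor of NF-kappaB and itself one of its targets, was at 686 and 584 CPM in control and 188, 148 and 164 CPM in disease (a log2 change of -2.03, SE 0.34, edgeR adjusted p = 0.00554). H2-D1, a classical class I antigen-presenting molecule, was at 1120 and 739 CPM against 141, 178 and 164 CPM (a log2 change of -2.60, SE 0.36, edgeR adjusted p = 0.00198). Cxcl12, the chemokine that retains haematopoietic stem cells in their niche, was at 1256 and 1089 CPM against 612, 148 and 239 CPM (a log2 change of -2.05, SE 0.46, edgeR adjusted p = 0.0262). The calls were lost in some alternatives: for Cebpd in 3 of 15, for Atf3 and H2-D1 in 1 of 18 each, for Nfkbia in 3 of 17 and for Cxcl12 in 5 of 18, among them the mitochondrial limit of 25%. Without disease replicate 4 the Cebpd, Nfkbia and Cxcl12 calls were lost, without disease replicate 5 these and H2-D1, and without control replicate 1 that of Cebpd. Disease and control libraries did not overlap for any of these 5 genes, a pattern shown by 26.1% of all genes tested.

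**Figure D4:**
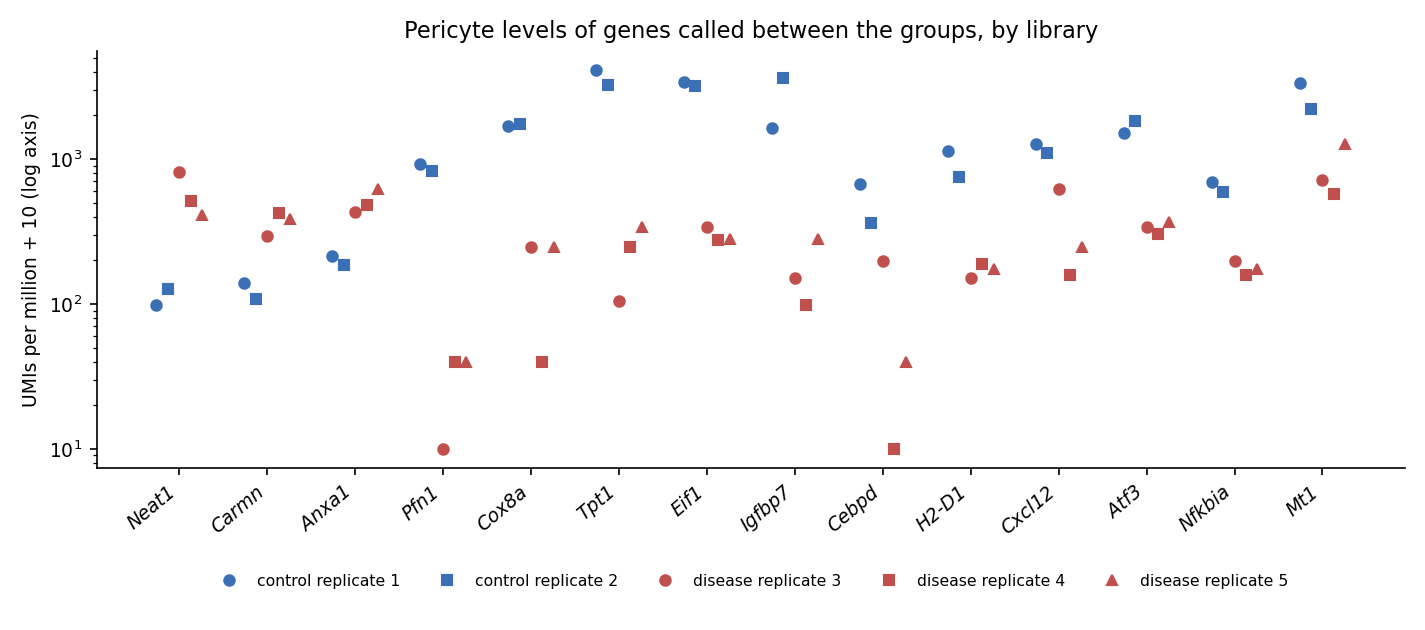
Levels in pericytes, as CPM plus 10 on a log axis, of 14 genes called between the groups, with 1 symbol per library. Neat1, Carmn and Anxa1 are higher in the 3 disease libraries (red) than in the 2 control libraries (blue), and the other 11 genes are lower, Pfn1 and Cebpd down to 0 UMIs in 1 disease library each.

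Promoters are shown for 3 called genes whose regulation is well known, Mt1 (metals and glucocorticoids), Atf3 (stress) and Nfkbia (NF-kappaB), each as the 250 bases before the start, from RefSeq on GRCm38.p6, with matches to 1 motif in capitals. All 3 genes had an entry. The Mt1 window is chr8:94178839-94179088 on the plus strand, the Atf3 window chr1:191183334-191183583 and the Nfkbia window chr12:55492648-55492897, both on the minus strand.
Mt1: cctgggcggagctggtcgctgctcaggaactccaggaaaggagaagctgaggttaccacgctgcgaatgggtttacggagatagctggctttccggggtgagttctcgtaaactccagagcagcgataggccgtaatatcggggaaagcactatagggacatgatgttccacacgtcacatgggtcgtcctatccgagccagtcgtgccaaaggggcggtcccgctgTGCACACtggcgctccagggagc
Atf3: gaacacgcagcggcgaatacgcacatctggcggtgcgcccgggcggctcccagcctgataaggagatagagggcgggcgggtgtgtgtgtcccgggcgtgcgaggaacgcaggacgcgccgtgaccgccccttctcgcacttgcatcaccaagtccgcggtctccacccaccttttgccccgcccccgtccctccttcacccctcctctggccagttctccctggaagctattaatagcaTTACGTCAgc
Nfkbia: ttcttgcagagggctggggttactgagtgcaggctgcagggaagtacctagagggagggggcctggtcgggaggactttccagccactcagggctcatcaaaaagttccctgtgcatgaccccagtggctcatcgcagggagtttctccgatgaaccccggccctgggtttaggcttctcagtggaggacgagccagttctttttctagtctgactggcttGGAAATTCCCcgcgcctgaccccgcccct
Capitals in Mt1 mark the metal response core TGCACNC or TGCGCNC, with 1 match, and 21.4% of the 32851 promoter windows held one on either strand. Capitals in Atf3 mark TGACGTCA or TTACGTCA, the element bound by ATF and CREB factors, with 1 match, found in 1.98% of windows. Capitals in Nfkbia mark the NF-kappaB consensus, with 1 match on the opposite strand, found in 7.25% of windows. A match is a stretch of letters and not evidence of binding.

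Dnajb1, a heat-shock co-chaperone named after its values were seen, was at 659 and 836 CPM in control and 94.1, 178 and 164 CPM in disease (a log2 change of -2.33, SE 0.36, edgeR adjusted p = 0.00375). Its call held in 14 of 17 alternatives. It was lost without disease replicate 4 or disease replicate 5 and with equal numbers of pericytes per library. Over the 23 immediate-early and stress genes, 22 were tested and 11 had fold changes above 0, with a median log2 fold change of 0.00. Atf3 alone was called, where 4.83% of all genes tested were called lower. Fos (0.28), Jun (0.39), Egr1 (-0.04) and Hspa8 (0.18) stood near 0, and Hspa1a, an inducible heat-shock protein, was at -1.34 (SE 0.35, edgeR adjusted p = 0.0528). Tpt1, Eif1, Fth1, Rps2 and Rpl13 have near-identical copies in the mouse genome and H2-D1 close relatives, and how reads shared with them were counted is not given in the sources used here, so their values are uncertain to that extent.

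Base composition and depth were set beside the calls. The first 300 transcript bases had a median GC content of 66.3% in the 48 lower genes, 54.7% in the 3 higher genes and 59.3% in the 943 that were not called. With the trend of fold change on GC content removed, 36 genes were lower and 2 higher, and 34 of the original 48 were still called lower. With each pericyte thinned to 1000 UMIs, 381 genes could be tested, among them 26 of the original 48, of which 18 were lower, and no other gene was called in either direction.

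None of the further pericyte markers that were tested passed. Of the 20 further pericyte markers, 18 were tested, 15 had log2 fold changes above 0 and none was called, with a median of 0.28 against 0.00 over all genes tested. Des, the intermediate filament desmin, was lowest at -1.15 (SE 0.43, edgeR adjusted p = 0.219), from 367 and 389 CPM in control to 329, 118 and 149 CPM in disease. Higd1b (0.75), Cspg4, the NG2 proteoglycan (0.56), Colec11 (0.52) and Pdgfrb (0.21) lay above 0 and were not called. The 4 rule genes, which are given without a test, had disease and control levels of 15810, 13710 and 13410 against 10960 and 12820 CPM for Rgs5 and 941, 2606 and 2971 against 2084 and 2723 CPM for Kcnj8. For Abcc9 they were 1647, 2369 and 2030 against 1005 and 1537 CPM, and for Vtn 2588, 2902 and 3240 against 2614 and 2393 CPM.

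Genes of vascular tone and contraction numbered 32, of which 18 were tested, with 11 above 0 and a median log2 fold change of 0.20. Mylk, the myosin light chain kinase (-0.64), Myl9 (-0.12), Cald1 (0.34) and the guanylate cyclase subunits Gucy1a1 (0.41) and Gucy1b1 (0.28) were not called. Of 22 genes of platelet-derived growth factor and Notch signalling, 7 were tested and none was called, with Notch3 at 0.20, Heyl, a Notch target, at 0.28 and Gjc1, a mural connexin, at 0.98. Their median was 0.21.

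Basement membrane genes were fitted mostly above 0 and none was called. Of 23 listed, 13 were tested and 12 had a log2 fold change above 0, beside 497 of all 994 genes tested. Their median was 0.36 against 0.00 over all genes tested. The groups did not overlap in 4 of the 13, and in 26.1% of all genes tested. Lamc1, the shared laminin gamma chain, was at 61.1 and 97.3 CPM in control and 282, 207 and 284 CPM in disease (a log2 change of 1.72, SE 0.58, edgeR adjusted p = 0.150). Lama2, a laminin alpha chain, was at 129 and 97.3 CPM against 376.5, 207 and 358 CPM (a log2 change of 1.32, SE 0.44, edgeR adjusted p = 0.147). Nid1, nidogen (0.74), was also higher in every disease library, and Col4a1 (0.21) overlapped. The exception was Itgb1, the beta integrin by which pericytes hold the membrane, at 611 and 817 CPM against 188, 444 and 373 CPM (a log2 change of -1.07, SE 0.36, edgeR adjusted p = 0.140). Of 34 genes of fibrillar matrix and activation, 9 were tested and none was called, from Cyr61 at -1.01 to Col6a2 at 1.25.

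Interferon-responsive genes were mostly too sparse in pericytes to test. Of 47 genes responding to interferon gamma, 9 were tested and 5 were above 0, beside 497 of all 994 genes tested. The median log2 fold change was 0.25. H2-D1 alone was called, where 4.83% of all genes tested were called lower. The list's sum was 4668 to 7455 CPM in control and 3812 to 7906 CPM in disease pericytes, so the groups overlapped. Disease replicate 4 held the highest level of Iigp1, an immunity-related GTPase (799.5 CPM, against 136 to 373 CPM in the controls), of B2m, the light chain of class I molecules (1895 against 759 and 998 CPM), and of Cd74, the invariant chain of class II (769.9 against 38.9 and 448 CPM), while disease replicate 3 held 141, 706 and 188 CPM of the same genes. None of these passed the test. Of 24 type I interferon genes, 5 were tested and none was called.

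The remaining lists had few testable members. Of 25 chemokine, cytokine and adhesion genes 7 were tested, Cxcl12 and Nfkbia were called lower, where 4.83% of all genes tested were, and the median was -0.24. Their summed level was 4406 and 5213 CPM in control and 2606 to 3703 CPM in disease pericytes, and in endothelial cells 4257 to 4430 against 2142 to 2508 CPM. Such sums were apart between the groups in 8 of the 26 lists in pericytes and in 11 of 26 in endothelial cells and in fibroblasts. They included the glucocorticoid-induced genes (6419 to 8290 CPM in control, 4141 to 5509 CPM in disease), the angiogenic signal genes (2334 to 2342 against 1508 to 2118 CPM) and the clock genes (842 to 1323 against 1459 to 1642 CPM). In endothelial cells the angiogenic sums (4755 to 5155 against 2954 to 3342 CPM) and clock sums (573 to 631 against 976 to 1123 CPM) were apart as well. Ccl11, an eosinophil chemokine, had 42 of its 71 UMIs in 1 pericyte of control replicate 2. Of 13 checkpoint ligand genes 3 were tested and none was called, with Cd47, the signal against engulfment, at 210.5 and 369.6 CPM in control and 47.1, 118 and 44.8 CPM in disease (a log2 change of -2.09, SE 0.63, edgeR adjusted p = 0.0982). Cd274, which encodes PD-L1, had a UMI in 4.39% of 114 thinned pericytes (1.89 to 9.86%) and in 8.06% of 6501 thinned leukocytes, the unthinned shares being 6.15 and 25.98%. Of 12 glucocorticoid-induced genes 8 were tested, Cebpd and Mt1 were called lower, beside the same 4.83%, and Tsc22d3, the glucocorticoid-induced leucine zipper, was at 1.11 (SE 0.36, edgeR adjusted p = 0.132). Of 22 angiogenic signal genes 3 were tested and Cxcl12 alone was called, beside the same 4.83%. It is the gene already given for the chemokine list. Complement (3 tested), clock (2) and cell cycle genes (2) gave no call.

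The same contrast was fitted in fibroblasts and endothelial cells of the same libraries, and the difference between classes was tested with a class by group term. In fibroblasts 12.5% and in endothelial cells 11.4% of the genes tested were lower in disease. The libraries are shared by all classes, and a difference between the libraries of the 2 groups cannot be told apart from disease. Pfn1 had a log2 fold change of -3.92 (SE 0.17) in fibroblasts and -3.79 (SE 0.12) in endothelial cells beside -5.13 (SE 0.49) in pericytes, and the class by group term did not pass (edgeR adjusted p = 1.0 against either class). For Ccdc85b, with no UMI in disease pericytes, the fitted values were -6.76 and -6.07. For Tpt1 they were -3.13 and -2.96 beside -3.98, and for Atf3 -2.33 and -2.21 beside -2.40. Neat1 was at 0.31 (SE 0.16) and 0.55 (SE 0.14) beside 2.35 (SE 0.44) in pericytes, with an unadjusted p of 0.00185 and an edgeR adjusted p of 0.823 for the difference from fibroblasts. A p that misses the threshold does not show that the classes changed alike.

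**Figure D5:**
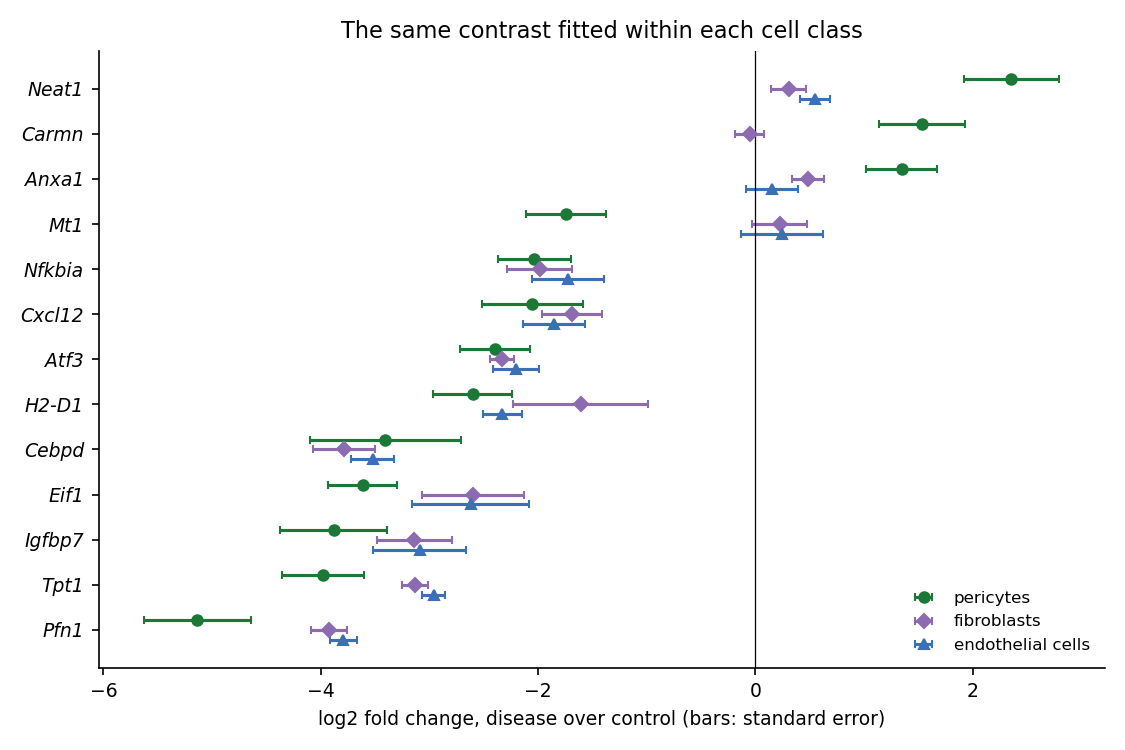
Log2 fold change, disease over control, of 13 called pericyte genes fitted separately in pericytes, fibroblasts and endothelial cells, with standard errors. Pfn1, Tpt1, Atf3 and most other falls appear in all 3 classes, while Mt1 is at -1.74 in pericytes and near 0 in the other 2 classes. Carmn was not tested in endothelial cells.

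A different change in pericytes passed the test for 7 of 11989 genes against fibroblasts (0.0584%) and for 2 of 11132 against endothelial cells (0.0180%), each with the lower change in pericytes. Leaving out control replicates 1 or 2 or disease replicates 3, 4 or 5 gave 2, 1, 12, 0 and 3 genes against fibroblasts, and without disease replicate 4, where edgeR called none, 286 had an unadjusted p under 0.05. Against endothelial cells 1 gene was left without control replicate 2 or disease replicate 4. Mt1, a metal-binding metallothionein, was at 3354 and 2198 CPM in control pericytes and 706, 563 and 1269 CPM in disease pericytes (a log2 change of -1.74, SE 0.37, edgeR adjusted p = 0.0182). That call held in 14 of 18 alternatives. It was lost, among others, without disease replicate 4 and with pericytes thinned to 1000 UMIs. The Mt1 fold change was 0.22 (SE 0.25) in fibroblasts and 0.24 (SE 0.38) in endothelial cells. The difference was -2.35 (SE 0.46, edgeR adjusted p = 0.00206) from fibroblasts and -2.38 (SE 0.46, edgeR adjusted p = 0.00136) from endothelial cells. Some cells carried much of it: 3 pericytes held 46.4% of the 494 Mt1 UMIs of control replicate 1, and 3 held 93.8% of the 113 of control replicate 2. The share of pericytes with an Mt1 UMI was 67.3 and 40.0% in control and 72.7, 57.9 and 57.1% in disease, so by that measure the groups overlapped. The difference from fibroblasts was lost without control replicate 1 (adjusted p = 0.391), control replicate 2 (0.0599) or disease replicate 4 (0.876), and that from endothelial cells without control replicate 2 (0.541) or disease replicate 4 (1.0).

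Maff, a small transcription factor of the stress response, had 25 and 20 UMIs in control pericytes (170 and 389 CPM) and none in disease pericytes. Those 45 UMIs lay in 11 and 4 pericytes, 14 of them in 1 cell of control replicate 2. It was too sparse for the test within pericytes, and its change differed from that in fibroblasts (edgeR adjusted p = 0.00301) and in endothelial cells (edgeR adjusted p = 1.97e-05), where its log2 fold change was -0.80 (SE 0.17) and 0.23 (SE 0.24). The difference from fibroblasts was lost without control replicate 2 (edgeR adjusted p = 0.388), disease replicate 4 (0.110) or disease replicate 5 (0.315), while that from endothelial cells passed with any 1 library left out. Ifit1, an interferon-induced antiviral protein, had 28 UMIs in control replicate 1, 25 of them in 1 pericyte, none in control replicate 2 and 0, 0 and 1 in disease. Its difference from fibroblasts (edgeR adjusted p = 0.00206) was lost without control replicate 1, where its sign turned (5.78, SE 14.1, edgeR adjusted p = 1.0), and without disease replicate 4 (edgeR adjusted p = 1.0). The other 4 genes that differed from fibroblasts, named here after their values were seen, were the interferon-induced GTPase genes Tgtp2 and Ifi47, the connexin gene Gja4 and the class I gene H2-Q7.

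No pericyte had 2 or more UMIs summed over the proliferation genes Ccnb2, Cdk1, Birc5, Top2a and Mki67, among 130 before and 114 after thinning. The count of 0 among 114 allows a share of cells meeting this criterion of up to 2.63%, which is no limit on cycling cells. In leukocytes 420 of 6650 met it before thinning and 103 of 6501 (1.58%, 1.31 to 1.92%) after it.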

How the data were processed

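Libraries were made with the 10x Genomics Single Cell 5' Reagent V1.1, per the labels' protocols, from sorted cells of pooled, digested hearts. The values the authors deposited are UMI counts for each gene and barcode, not normalized, and the software version in the file headers is Cell Ranger 3.1.0. The submitters' processing notes name Cell Ranger 3, Seurat 3 and the builds GRCh38 and mm10. How cells were called is not given in the sources used here, and the lowest total of a barcode was 500 UMIs.

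Pericytes were found by the UMI rule in these counts. The comparison classes used the same mitochondrial limit: fibroblasts had at least 10 UMIs of Dcn and Col1a1, endothelial cells at least 3 of Pecam1 and Cdh5, smooth muscle cells at least 3 of Myh11 and leukocytes at least 2 of Ptprc, with limits on the other classes' genes. Doublets were called with Scrublet in scanpy 1.11.5 and left in. CPM are UMIs relative to all UMIs of the library's cells of that class.

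Sums per library and class were tested in R 4.3.3 by the quasi-likelihood test of edgeR 4.0.16, with TMM scaling, the filterByExpr filter, library sizes summed over the genes tested and Benjamini-Hochberg adjustment at 0.05. Class by group terms were fitted with libraries as blocks. The fit within pericytes was tested on simulated data with the same dispersion for every gene. It called 8.5% of genes given a log2 change of 1 and 93.3% of those given 2. A gene that was not called may thus still have changed by a log2 of 1. Shares and depths were compared by exact permutation over the 5 libraries.

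Members and gene lists were chosen with earlier results of these data known. Genes named were the 12 largest rises and falls among those called with groups apart and an average log2 CPM of at least 5, the 5 smallest p-values where fewer than 5 rose, the 3 smallest adjusted p-values of each class by group fit, the 15 highest pericyte ratios (10 CPM added) and the called or extreme genes of 26 lists. Alternatives covered scaling, filters, DESeq2 1.42.0, the rule's limits, thinning, GC content and leaving out each library. Some genes that the naming rule selects are not reported here.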

Additional observations from a re-analysis of the deposited data

Results flagged for a closer look

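The change of 3 genes between disease and control differed in pericytes from that in another cell class by the class by group test. For Mt1 the edgeR adjusted p was 0.00206 against fibroblasts and 0.00136 against endothelial cells. For Maff it was 0.00301 against fibroblasts and 1.97e-05 against endothelial cells. For Ifit1 it was 0.00206 against fibroblasts, with 25 of its 28 control UMIs in 1 pericyte. Each of these genes was lower in disease pericytes relative to the other class.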

How the results depend on the processing

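The difference in pericyte share was negative in every alternative run, from -0.108 percentage points (Dcn and Col1a1 at most 1 UMI) to -0.529 (marker sum alone) over kept barcodes, and from -0.110 to -0.313 with 1 library left out. The difference in median depth ran from -733 to -1031 UMIs with 1 library left out. Against 48 lower and 3 higher genes, DESeq2 gave 29 lower and 2 higher, and no filter on low counts 109 and 1. Limiting Dcn and Col1a1 to 1 UMI gave 31 and 1, a mitochondrial limit of 25% gave 60 and 1, and 11 pericytes from each library gave 19 and 0. Of the alternatives chosen after seeing the data, a marker sum of at least 10 gave 48 and 2, dropping the limit on Pecam1 and Cdh5 gave 483 and 17, and thinning to 1000 UMIs gave 18 and 0 among fewer genes tested. Leaving out 1 library gave 9 to 47 lower and 0 to 4 higher genes. The 7 genes that changed differently from fibroblasts became 3 without the filter, 3 with a marker sum of at least 5 and 0 to 12 with 1 library left out, and the 2 against endothelial cells 1 to 2. The cause of these changes was not tested. No paired analysis was possible because the groups share no replicate numbers. The comparison with smooth muscle cells was not run, since 3 libraries held fewer than 20 of them. With 11 to 52 pericytes per library, 994 of the 11987 genes with a pericyte UMI could be tested.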
